A study of Mus musculus with 6 samples.

Results

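The genes followed here mark injured and repairing renal tubules. They are Havcr1, Clu, Cd44, Sox9, Sox4, Cd24a, Vcam1, Icam1 and Prom1, which were chosen by name. All 9 were found among the 28789 genes of the deposited table, each under 1 gene identifier. The RNA came from TCMK1, an immortalised mouse renal tubular epithelial cell line. The cells of 3 libraries overexpressed YOD1, a deubiquitinase, and those of 3 control libraries did not. Cells of both groups had received angiotensin II (Ang II), so no library shows the markers without it. The dose and duration of Ang II, the construct that carried YOD1 and what the controls carried are not stated in the sources used here. The labels do not say that libraries came from separate cultures, and the p-values therefore cover the spread between these samples only, which may be technical.

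An injured tubule cell loses its transport functions and takes up a repair programme. Kidney injury molecule 1, the product of Havcr1, appears on the apical membrane and lets the cell engulf dead neighbours. Clu encodes clusterin, a secreted chaperone that rises in damaged tubules. Sox9 and Sox4 encode transcription factors of progenitor and regenerating epithelium. Cd44 (a hyaluronan receptor), Cd24a and Prom1 (the CD133 protein) are surface molecules of scattered and regenerating tubular cells. Vcam1 and Icam1 encode adhesion molecules that hold leukocytes through integrins, are induced by tumour necrosis factor through NF-kB, and mark tubule cells that fail to complete repair.

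The Icam1 promoter is shown because Icam1 had the largest fold change among the members that could be tested, and because the letters of sites for NF-kB and STAT factors, which act in tumour necrosis factor and JAK signalling, were found in it. The sequence is that of the 250 bases before the gene start in RefSeq on GRCm38.p6, chr9:21015690-21015939, plus strand, 5′ to 3′. The motifs searched in all windows also included TATAAA and the core of the interferon-stimulated response element. Capitals mark 2 matches to the kappaB motif GGNNNTTCC and 1 match to the GAS motif TTCNNNGAA, each searched on both strands, and no 2 of these matches overlap.
Icam1 promoter: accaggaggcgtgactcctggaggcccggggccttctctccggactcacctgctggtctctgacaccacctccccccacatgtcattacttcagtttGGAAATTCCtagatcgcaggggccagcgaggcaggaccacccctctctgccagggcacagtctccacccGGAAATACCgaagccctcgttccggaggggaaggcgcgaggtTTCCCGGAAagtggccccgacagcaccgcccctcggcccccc
The kappaB matches began 153 and 84 bases before the gene start and the GAS match 42 bases before it. Among 32851 promoter windows of this length, 15.7% held the kappaB letters, 7.02% the GAS letters and 1.25% both. Promoter entries were found for 5 of the 9 members. Neither motif was found in the windows of Cd44, Havcr1, Sox4 or Prom1, and the AP-1 motif TGANTCA, present in 6.75% of windows, was found in both windows of Prom1. The letters TATAAA (12.4% of windows) and the interferon response core (2.98%) were found in no member's window. The letters describe the window only and say nothing of whether a factor was bound.

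The libraries were close to each other in overall content. Across tested genes, the log2 values of any pair of libraries had an r between 0.955 and 0.989, and the lowest belonged to YOD1 library 3 with control 1. The deposited values are FPKM, fragment numbers scaled to transcript length and to the mapped fragments of a library. For each library the commonest product of FPKM and merged exon length in bases was sought among low values. The search was confined to a fixed window, so a product outside it could not have been found. The commonest product was 57.6 to 73.2 and was taken as 1 fragment. This corresponds to about 13700000 to 14300000 fragments in the YOD1 libraries and 16600000 to 17400000 in the controls. Fragment numbers given for a gene rest on this estimate. Yod1 itself stood at 1.73, 7.56 and 1.86 FPKM in the YOD1 libraries and at 0.842, 0.757 and 0.684 FPKM in the controls, without overlap. YOD1 library 2 stood far above the others. The log2 fold change of Yod1 was 1.21 (limma adjusted p = 0.141). The authors' deposited table gives Yod1 q = 0.031, by a test not named in the sources used here, and marks it as significant. Ribosomal RNA transcripts differed between the groups: Rn18s-rs5 took 2.17% to 3.90% of the FPKM sum in the YOD1 libraries and 0.421% to 0.733% in the controls. Of 12 markers of renal tubular epithelium, 10 averaged at least 1 FPKM, Krt18, Cdh16 and Pax8 among them. The phosphate transporter Slc34a1 of the proximal tubule was listed at 0 in 5 of 6 libraries and the endocytic receptor Cubn stayed at or below 0.116 FPKM. Both were thus nearly absent. Other proximal tubule genes of the same list were not: Aqp1 averaged 20.2 FPKM and Lrp2 3.18 FPKM over the 6 libraries. Because these are bulk samples, more cells with a transcript and more transcript per cell cannot be told apart.

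With YOD1 overexpression, no member passed the test over all genes. Icam1, Vcam1 and Havcr1 were higher in all 3 YOD1 libraries than in any control, by 2.56, 2.38 and 2.71 times in mean FPKM. The same held for 9.77% of tested genes, as Icam1 was. It also held for 8.04% of untested genes that averaged at least 0.1 FPKM, as Vcam1 and Havcr1 did. Sox4 was lower in all 3 YOD1 libraries than in any control, as were 19.1% of tested genes, but by the narrowest margin. Clu and Cd44 had mean ratios of 1.03 and 1.01. The test took in genes that reached 1 FPKM in 3 or more libraries, which kept 11483 genes and 5 of the 9 members, Clu, Cd24a, Cd44, Sox4 and Icam1. At an adjusted p of 0.05, limma called 0 of these 5, against 55 of 11483 genes (0.479%) over the whole table, 0.444% higher and 0.0348% lower with YOD1. The split of these calls, 51 higher and 4 lower, was 145 and 95 without control 3 and 90 and 24 without YOD1 library 3. At an unadjusted p under 0.05 it counted 1 of 5 (Icam1), against 20.9% of tested genes. Over all tested genes that count held 904 higher and 1494 lower genes, and median-ratio scaling of the libraries turned the balance to 1257 and 952. The groups did not overlap for 2 of the 5 tested members, Icam1 and Sox4, against 28.9% of tested genes. With 3 libraries on each side, the smallest p of an exact permutation test is 0.1, so none is given.

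The levels of the members spanned a wide range. Averaged over 6 libraries, FPKM fell in the order Clu (23.8), Cd24a (18.7), Cd44 (10.4), Sox4 (5.51), Icam1 (1.63), Sox9 (0.956), Havcr1 (0.650), Vcam1 (0.324) and Prom1 (0.114). FPKM is scaled to length, so these levels can be set side by side. Sox4 lay below Cd44 in every library, with no overlap of their ranges over all 6, and Icam1 likewise lay below Sox4. The other neighbours in the order had ranges that overlapped. Clusterin transcripts stood above 90.9% of the genes in the table by mean FPKM, and Prom1 transcripts above 38.6%.

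**Figure D1:**
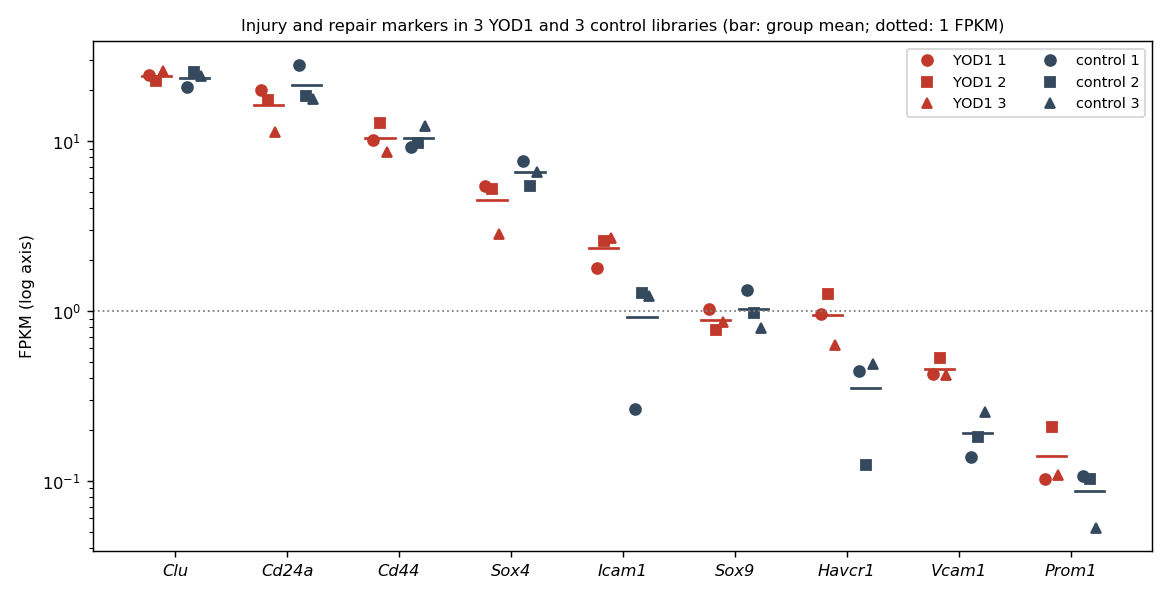
FPKM of the 9 markers on a log axis, with each YOD1 library (red, left) and control library (dark, right) as a point, group means as bars and 1 FPKM as a dotted line. Icam1, Havcr1 and Vcam1 have all 3 YOD1 points above all 3 control points, and the 2 groups of Clu and Cd44 lie on top of each other.

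Icam1 (ENSMUSG00000037405), the ligand of leukocyte integrins, had 1.78, 2.58 and 2.68 FPKM in the YOD1 libraries, against 0.265, 1.26 and 1.22 FPKM in the controls. The groups did not overlap, and control 1 stood well below the other controls. These values correspond to about 111, 153 and 162 fragments in the YOD1 libraries and 20, 96 and 88 in the controls. The 95% Poisson interval of control 1, from 0.165 to 0.417 FPKM, did not reach those of controls 2 and 3, which began at 1.03 and 0.975 FPKM. Poisson intervals cover counting error only. Means were 2.35 ± 0.50 FPKM in YOD1 cells and 0.916 ± 0.564 FPKM in controls (SD, n = 3 each). Fold changes from limma are on the log2(FPKM + 1) scale, where those of low genes come out too small. The log2 fold change of Icam1 was 0.84 with an SE of 0.24 (95% interval 0.31 to 1.38, limma adjusted p = 0.126). Without control 1 it was 0.57 (limma adjusted p = 0.312). The authors' deposited table gives Icam1 q = 0.0344 and marks it as significant, as it does for 0.993% of the genes it lists (0.66% higher with YOD1). The sources used here do not name the test behind that value. Of the 9 members the authors' deposited table marks Icam1 and Vcam1. Gm47079, which overlaps Icam1 on the opposite strand, averaged 0.167 FPKM in YOD1 cells and 0.261 FPKM in controls, and with the strand of the libraries unknown their reads cannot be told apart.

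Some genes of myeloid cells had the same split between libraries as Icam1, with control 1 lowest. The 2 tested genes closest to it, by the root-mean-square difference of centred log2(FPKM + 1) over the 6 libraries, were Slfn4 (0.075) and S100a9 (0.093). S100a9, a calcium-binding protein of neutrophils, had 1.17, 2.23 and 2.13 FPKM in the YOD1 libraries and 0, 1.03 and 1.05 FPKM in the controls. Slfn4, of the Schlafen family, had 1.44, 2.09 and 2.12 FPKM in the YOD1 libraries and 0.0221, 1.13 and 1.06 FPKM in the controls. Both genes were picked for closeness to the Icam1 profile, so their lack of overlap and low control 1 followed from that choice. Lyz2, the lysozyme of macrophages and neutrophils, had 10.5, 17.99 and 18.7 FPKM in the YOD1 libraries and 1.47, 8.15 and 9.04 FPKM in the controls. Over the leukocyte list, 7 of 8 markers were used here and 3 averaged at least 1 FPKM (Cd68, Lyz2 and Csf1r). Its summed level was 27.8 to 38.5 FPKM in the YOD1 libraries and 24.6 to 35.5 FPKM in the controls. Cd68 differed from Lyz2 in its pattern, with 12.3, 12.9 and 15.3 FPKM in the YOD1 libraries and 19.1, 22.9 and 12.6 FPKM in the controls. Csf1r had 4.70, 4.93 and 4.14 FPKM in the YOD1 libraries and 3.88, 4.32 and 4.98 FPKM in the controls, with overlapping groups. The pan-leukocyte marker Ptprc averaged 0.0556 FPKM in the YOD1 libraries and 0.0267 FPKM in the controls, with overlapping groups. The T cell marker Cd3e was listed at 0 in 5 of 6 libraries. Lyve1, a hyaluronan receptor of lymphatic endothelium and some macrophages, had 0.778, 1.52 and 1.24 FPKM in the YOD1 libraries and 0.0202, 0.481 and 0.696 FPKM in the controls, with control 1 again lowest. Where the RNA of these myeloid genes came from, and its part in the Icam1 values, was not tested, so the Icam1 values may not be those of the tubular cells alone.

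Vcam1 (ENSMUSG00000027962), the ligand of the alpha4 integrins, had 0.425, 0.525 and 0.418 FPKM in the YOD1 libraries, against 0.138, 0.181 and 0.255 FPKM in the controls. Every YOD1 library was higher than every control, and the highest value was 1.26 times the lowest among the YOD1 libraries and 1.85 times among the controls. The estimate gives about 54, 64 and 51 fragments in the YOD1 libraries and 21, 28 and 38 in the controls. The Poisson interval of control 3, the highest control, ran from 0.183 to 0.354 FPKM and overlapped those of YOD1 libraries 1 and 3, which began at 0.319 and 0.309 FPKM. Means were 0.456 ± 0.060 FPKM in YOD1 cells and 0.191 ± 0.059 FPKM in controls (SD, n = 3 each). The log2 ratio of means was 1.25, and it was 1.06 without control 1, the lowest control. Vcam1 was below 1 FPKM in every library and so was not tested. Among the 6605 untested genes that averaged at least 0.1 FPKM, 8.04% had every YOD1 library above every control and 9.63% had every one below. With no filter, limma gave Vcam1 a log2 fold change of 0.29 (unadjusted p = 0.0040, adjusted p = 0.26). That fit called 0 of 28789 genes and had 11.9% at an unadjusted p under 0.05. Of the 4 untested members, 2 were at that level, Vcam1 and Havcr1. With a pseudocount of 0.1 as well, the log2 fold change of Vcam1 was 0.95 (limma unadjusted p = 0.012, adjusted p = 0.311). The fit with that pseudocount had 11.4% of genes at an unadjusted p under 0.05. The authors' deposited table gives q = 0.00782 and marks Vcam1 as significant.

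Both adhesion molecules are also made by endothelium, whose markers were low here. None of 5 endothelial markers averaged 1 FPKM. Their summed level was 1.34, 1.96 and 2.24 FPKM in the YOD1 libraries and 0.730, 1.35 and 1.40 FPKM in the controls. The groups overlapped in this sum, and control 1 was the lowest library here too. By marker, Pecam1, Cdh5 and Tek overlapped, while Kdr and Emcn were higher in every YOD1 library than in any control. The same held for 8.04% of untested genes that averaged at least 0.1 FPKM. Emcn averaged less than that, with a lowest YOD1 value of 0.0933 FPKM and a highest control value of 0.0845 FPKM. For Kdr the lowest YOD1 value was 0.184 FPKM and the highest control value 0.148 FPKM. The part of endothelial RNA in the Icam1 and Vcam1 values was not tested. The related adhesion gene Icam5 had 2.05, 1.42 and 1.32 FPKM in the YOD1 libraries and 2.02, 1.79 and 2.06 FPKM in the controls, with overlapping groups (log2 fold change -0.20, limma adjusted p = 0.482). Icam2, carried by leukocytes and endothelium, stayed below the filter. It had 0.212, 0.292 and 0.284 FPKM in the YOD1 libraries and 0, 0.181 and 0.0480 FPKM in the controls. Every YOD1 value lay above every control value, as for 8.04% of untested genes that averaged at least 0.1 FPKM.

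Havcr1 (ENSMUSG00000040405), which encodes kidney injury molecule 1, had 0.961, 1.26 and 0.633 FPKM in the YOD1 libraries, against 0.443, 0.124 and 0.486 FPKM in the controls. All 3 YOD1 libraries lay above all 3 controls, although YOD1 library 3 and control 3 were close. These values stand for about 32, 40 and 20 fragments in the YOD1 libraries and 17, 5 and 19 in the controls. The Poisson interval of YOD1 library 3 (0.381 to 0.964 FPKM) overlapped that of control 3 (0.298 to 0.774 FPKM), so the order of these 2 libraries lay within counting error. Means were 0.950 ± 0.312 FPKM in YOD1 cells and 0.351 ± 0.198 FPKM in controls (SD, n = 3 each). Havcr1 reached 1 FPKM in 1 library and was not tested. With no filter its log2 fold change was 0.53 (limma unadjusted p = 0.023, adjusted p = 0.349). The authors' deposited table gives Havcr1 q = 0.0856 without a mark of significance. Its relatives Timd2 and Timd4, of which TIM-4 is a macrophage receptor for phosphatidylserine, were near 0, with means over 6 libraries of 0.0276 and 0.0197 FPKM.

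**Figure D2:**
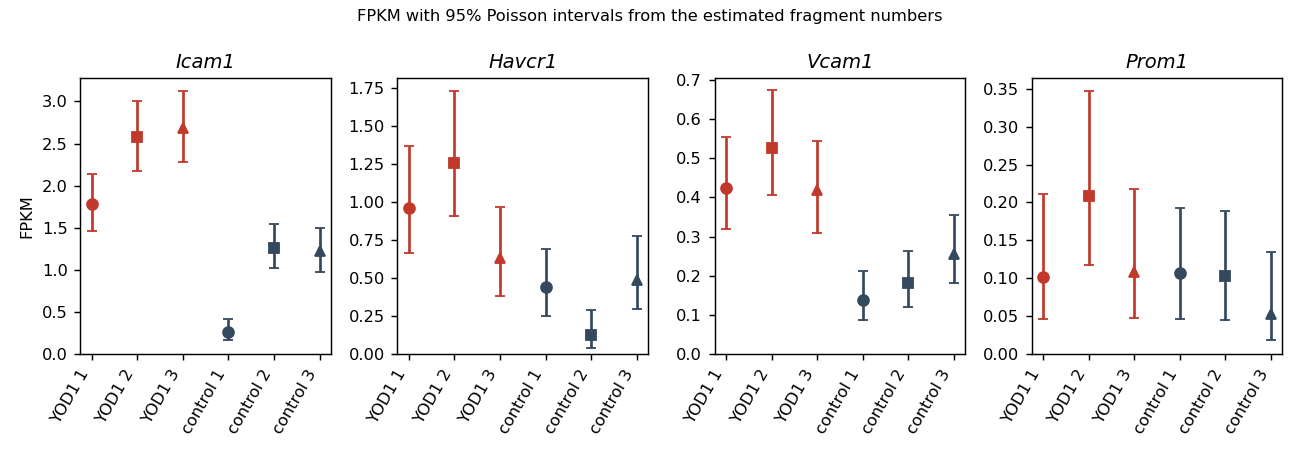
FPKM of Icam1, Havcr1, Vcam1 and Prom1 in each YOD1 library (red, left) and control library (dark, right), with 95% Poisson intervals from the estimated fragment numbers and a separate linear axis per gene that starts at 0. Control 1 stands below the other controls for Icam1, the intervals of YOD1 library 3 and control 3 overlap for Havcr1, and those of Prom1 overlap in all libraries.

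Sox4 (ENSMUSG00000076431), a transcription factor of developing and regenerating epithelium, had 5.40, 5.21 and 2.84 FPKM in the YOD1 libraries, against 7.60, 5.41 and 6.58 FPKM in the controls. The groups did not overlap, but YOD1 library 1 and control 2 were almost equal, and their Poisson intervals of 4.86 to 5.98 and 4.92 to 5.93 FPKM covered each other. YOD1 library 3 stood apart from the other YOD1 libraries at about 189 fragments, against 371 and 341. Means were 4.48 ± 1.43 FPKM in YOD1 cells and 6.53 ± 1.10 FPKM in controls (SD, n = 3 each). The log2 fold change was -0.48 with an SE of 0.22 (95% interval -0.98 to 0.01, limma adjusted p = 0.25). Without YOD1 library 3 it was -0.24 (limma adjusted p = 0.422). Groups with every YOD1 library below every control were found for 19.1% of tested genes.

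Sox9 (ENSMUSG00000000567), the regulator that proliferating tubule cells switch on after injury, showed no separation between the groups. It had 1.02, 0.768 and 0.856 FPKM in the YOD1 libraries and 1.32, 0.975 and 0.789 FPKM in the controls. The highest value belonged to control 1 and the ranges overlapped. Sox9 reached 1 FPKM in 2 libraries and was not tested. The log2 ratio of mean FPKM was -0.22, and it was 0.00 without control 1. Of 15 SOX relatives, 14 were listed and 1 passed the filter, Sox12, which belongs with Sox4 and Sox11 to the SOXC group. Sox12 had 14.9, 14.7 and 14.7 FPKM in the YOD1 libraries and 13.4, 14.9 and 20.8 FPKM in the controls (log2 fold change -0.12, limma adjusted p = 0.70), and its level was above that of Sox4 in every library. Sox11 stayed below the filter, at 0.384, 0.475 and 0.296 FPKM in the YOD1 libraries and 0.259, 0.173 and 0.248 FPKM in the controls.

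Cd24a (ENSMUSG00000047139), a small glycosylphosphatidylinositol-anchored surface protein, had 19.9, 17.3 and 11.3 FPKM in the YOD1 libraries and 28.1, 18.3 and 17.5 FPKM in the controls. YOD1 library 3 was the lowest and control 1 the highest, and the groups overlapped. Means were 16.2 ± 4.40 FPKM in YOD1 cells and 21.3 ± 5.89 FPKM in controls (SD, n = 3 each), with a log2 fold change of -0.38 and an SE of 0.23 (95% interval -0.90 to 0.14, limma adjusted p = 0.352). Its value was -0.16 without YOD1 library 3 and -0.17 without control 1. Prom1 (ENSMUSG00000029086) was the lowest of the 9 genes, with 0.102, 0.208 and 0.109 FPKM in the YOD1 libraries and 0.107, 0.103 and 0.0529 FPKM in the controls. These values stand for about 8, 15 and 8 fragments in the YOD1 libraries and 9, 9 and 5 in the controls, and the Poisson intervals of all 6 libraries overlapped.

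Cd44 (ENSMUSG00000005087), the hyaluronan receptor, had 10.1, 12.7 and 8.59 FPKM in the YOD1 libraries and 9.19, 9.72 and 12.3 FPKM in the controls. The ranges lay almost on top of each other. The log2 fold change was 0.00 with an SE of 0.18, and its 95% interval of -0.39 to 0.40 leaves room for a modest change in either direction (limma adjusted p = 0.997). With trends of transcript length and GC content removed the log2 fold change was 0.28 (limma adjusted p = 0.261). Clu (ENSMUSG00000022037), encoding clusterin, had 24.4, 22.5 and 25.7 FPKM in the YOD1 libraries and 20.7, 25.5 and 24.0 FPKM in the controls, with overlapping groups. It was the steadiest member, with a highest value 1.24 times its lowest over the 6 libraries. Its log2 fold change was 0.05 with an SE of 0.13 (95% interval -0.24 to 0.34, limma adjusted p = 0.841).

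**Figure D3:**
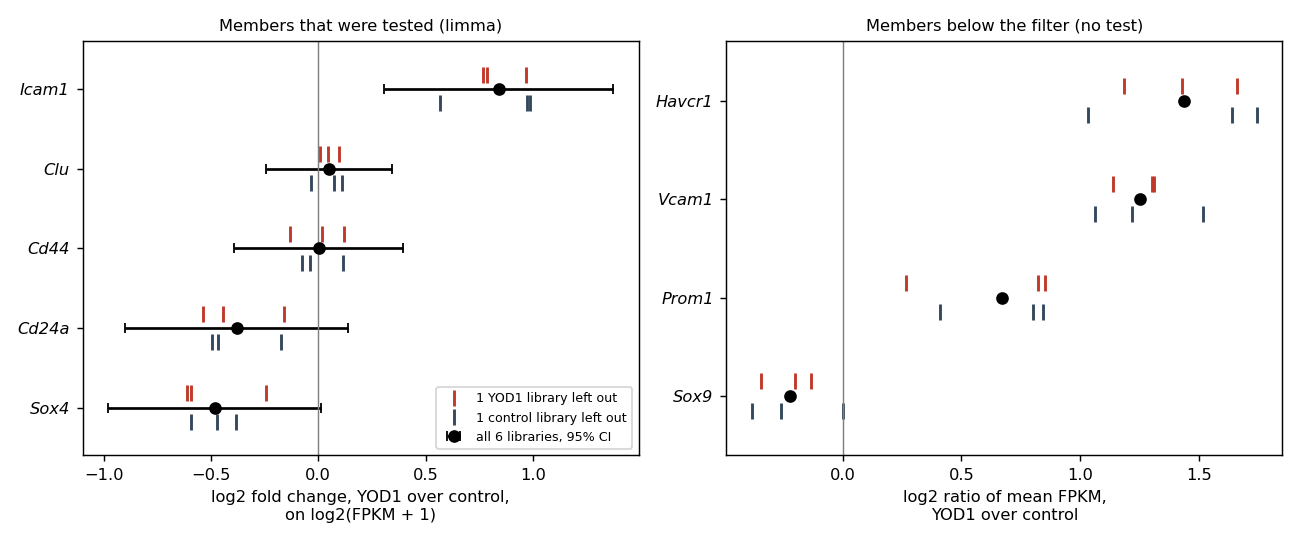
Change of each marker, YOD1 over control. Left, log2 fold change on log2(FPKM + 1) with 95% intervals for the 5 tested members, right, log2 ratio of mean FPKM for the 4 below the filter, with ticks for the values when 1 YOD1 library (red, above) or 1 control (dark, below) is left out. Icam1 stays between 0.57 and 0.99 in these fits, and the values of Clu and Cd44 fall on both sides of 0.

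The other tested members also had close profiles, by the same root-mean-square measure over 6 libraries. The closest were Prr15l (0.028) and Atp9a (0.041) for Clu, Pole (0.017) and Ppm1l (0.023) for Cd44, Map3k7 (0.041) and Tpp2 (0.043) for Sox4, and Nuf2 (0.052) and Arl6ip1 (0.068) for Cd24a. Map3k7, a kinase of NF-kB and stress signalling, had 3.59, 3.596 and 1.82 FPKM in the YOD1 libraries and 5.26, 3.54 and 4.15 FPKM in the controls. Like Sox4, it was lowest in YOD1 library 3 and highest in control 1. All these genes were picked for closeness to a member's profile, so such likeness followed from that choice.

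Other genes of the injured and repairing tubule went both ways. Of 40 such genes 35 were tested, and limma called 0 of them, against 0.479% of all tested genes. An unadjusted p under 0.05 was found for 10 of the 35, against 20.9% of all tested genes. The log2 fold change was above 0 for 15 and below 0 for 20, with a median of -0.03 (0.06 with median-ratio scaling), against -0.10 over all tested genes. Of all 11483 tested genes, 4176 were above 0 and 7307 below. Every YOD1 library was higher than every control for 8 of the 35 and lower for 4, against 9.77% and 19.1% of tested genes. The genes of highest level were Lgals3 (galectin 3), Krt18 and S100a6. Lgals3 averaged 752 FPKM in YOD1 cells and 598 FPKM in controls (log2 fold change 0.34, limma adjusted p = 0.259). Krt18, a keratin of simple epithelia, averaged 681 FPKM in YOD1 cells and 528 FPKM in controls (log2 fold change 0.36, limma adjusted p = 0.259). S100a6, which encodes a calcium-binding protein, gave 0.21 on the log2 scale (limma adjusted p = 0.523). Some genes were named after their values were seen. Krt7, another simple epithelial keratin, came closest to the threshold, with 39.3, 39.996 and 46.4 FPKM in the YOD1 libraries and 11.7, 13.1 and 25.1 FPKM in the controls, without overlap (log2 fold change 1.35, limma adjusted p = 0.0511). Lcn2, the injury marker NGAL, averaged 102 ± 10.9 FPKM in YOD1 cells and 75.6 ± 4.80 FPKM in controls (SD, n = 3 each). In limma its log2 change was 0.42 (adjusted p = 0.133). Tnfrsf12a, the receptor of TWEAK, averaged 156 FPKM in YOD1 cells and 103 FPKM in controls (log2 fold change 0.60, limma adjusted p = 0.0976). The nephron transcription factor Pax8 averaged 26.8 FPKM in YOD1 cells and 37.1 FPKM in controls (log2 fold change -0.45, limma adjusted p = 0.12). Like Pax8, Foxm1, Krt20 and Il34 were lower in every YOD1 library than in any control. Their log2 fold changes were -0.33, -0.19 and -0.33 (limma adjusted p = 0.173, 0.366 and 0.261). Klf6 had the lowest log2 fold change of the list, -0.87 (limma adjusted p = 0.227), with overlapping groups.

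Genes that act with the members were examined by role. Of 15 genes for CD44 ligands, anchors and proteases 10 were tested, and limma called 0, against 0.479% of all tested genes. Of these 10 genes, 3 had an unadjusted p under 0.05, against 20.9% of all tested genes. Of the 10, 7 had a log2 fold change below 0, against 7307 of all 11483 tested genes. The median log2 fold change of the 10 was -0.36, against -0.10 over all tested genes. It was -0.16 without YOD1 library 3, -0.18 with a filter at 5 FPKM and -0.02 with no filter. The hyaluronan synthases Has1, Has2 and Has3 were below the filter. Ezr, encoding ezrin, which ties CD44 to actin, had 129, 127 and 123 FPKM in the YOD1 libraries and 199, 200 and 126 FPKM in the controls (log2 fold change -0.43, limma adjusted p = 0.22). Its groups overlapped because control 3 lay with the YOD1 libraries. Msn (moesin) and Cd74, the CD44 partner in MIF signalling, had log2 fold changes of 0.03 and 0.22. Of the 3 tested clusterin receptor genes, Vldlr, Lrp2 and Lrp8, all were below 0, as were 7307 of all 11483 tested genes. Their log2 fold changes were -0.20, -0.32 and -0.35 (limma adjusted p from 0.235 to 0.63). Limma called 0 of these 3, against 0.479% of all tested genes. An unadjusted p under 0.05 was found for 1 of them, against 20.9% of all tested genes. Among 15 genes of the differentiated proximal tubule 3 were tested, Aqp1 (log2 fold change 0.13), Gpx3 (1.16) and Lrp2. Limma called 0 of these 3, against 0.479% of all tested genes. Gpx3 alone had an unadjusted p under 0.05, against 20.9% of all tested genes. It had 3.86, 8.70 and 8.86 FPKM in the YOD1 libraries and 1.48, 3.39 and 2.80 FPKM in the controls (limma adjusted p = 0.115). Its groups did not overlap, as for 9.77% of tested genes, and control 1 was lowest.

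Genes of NF-kB feedback and other targets of tumour necrosis factor lay on both sides of 0. Of 20, 15 were tested, and limma called 0, with 2 at an unadjusted p under 0.05, against 20.9% of all tested genes. The log2 fold change was above 0 for 5 and below 0 for 10, with a median of -0.06 (0.03 with median-ratio scaling), against -0.10 over all tested genes. Of all 11483 tested genes, 4176 were above 0 and 7307 below. The chemokine gene Cxcl1 and the subunit genes Nfkb2 and Rela, the most abundant, had log2 fold changes of -0.03, -0.04 and -0.29 (limma adjusted p from 0.288 to 0.948). Cxcl10, an interferon-induced chemokine named after its values were seen, had 9.37, 14.2 and 9.40 FPKM in the YOD1 libraries and 3.999, 3.84 and 5.76 FPKM in the controls (log2 fold change 1.11, limma adjusted p = 0.0523). The feedback genes Nfkbia and Nfkbie, also named after their values were seen, went opposite ways. Nfkbia was higher without overlap (log2 fold change 0.43, limma adjusted p = 0.12). Nfkbie was lower without overlap (log2 fold change -0.35, limma adjusted p = 0.255). In the KEGG annotation of the deposited table Icam1 and Vcam1 share 8 terms, among them the TNF and NF-kappa B signalling pathways. Of 85 tested genes of the TNF pathway limma called 1, the chemokine gene Ccl5, against 0.479% of all tested genes. Of the 85, 12 were higher and 12 lower in every YOD1 library than in any control, against 9.77% and 19.1% of all tested genes. Of 62 tested NF-kappa B genes limma called 0, with 10 at an unadjusted p under 0.05, against 20.9% of all tested genes. Of the 62, 7 were higher and 7 lower without overlap, against the same 9.77% and 19.1%.

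Most of the 8 integrin chains that bind VCAM1 and ICAM1 were below the filter. The leukocyte chains Itgal, Itgax and Itga4 averaged 0.0474, 0.0414 and 0.0465 FPKM over 6 libraries, and Itgal and Itgax were listed at 0 in control 1. The 3 tested chains were Itgb1, Itgb7 and Itgb2, of which 0 were called by limma, against 0.479% of all tested genes. An unadjusted p under 0.05 was found for 1, against 20.9% of all tested genes. Itgb1, the common beta chain of epithelial integrins, averaged 41.0 FPKM in YOD1 cells and 41.3 FPKM in controls (log2 fold change -0.05). Itgb7 averaged 30.8 FPKM in YOD1 cells and 21.5 FPKM in controls (log2 fold change 0.55, limma adjusted p = 0.219), and its groups overlapped.

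**Figure D4:**
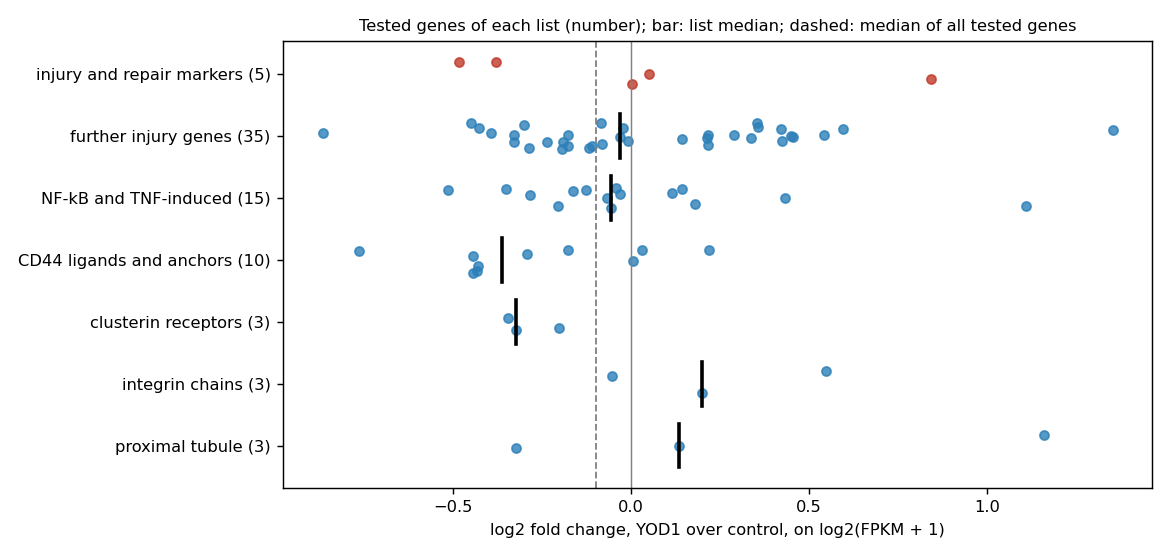
Log2 fold change (YOD1 over control, on log2(FPKM + 1)) of the tested genes of each list, 1 point per gene, with bars at the median of each list other than the 5 tested markers and a dashed line at the median of all tested genes (-0.10). Genes of the injured tubule and of NF-kB signalling lie on both sides of 0, and the CD44 list has a median of -0.36, which was -0.16 without YOD1 library 3 and -0.18 with a filter at 5 FPKM.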

How the data were processed

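RNA of 6 TCMK1 samples was sequenced, and 1 table was used. The authors deposited an FPKM per gene and library beside their own fold ratio of means, log2 ratio, p-value and q-value, per the file headers. Per the submitters' processing notes, HISAT2 2.0, StringTie 1.3.0 and Bowtie 0.12.2 were used, and mm8 is the build named. The sources used here give no strand of counting and no name for the authors' test.

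For values that are not counts the design named limma. FPKM plus 1 was put on the log2 scale, genes at 1 FPKM or more in 3 or more libraries were tested, and limma 3.58.1 in R 4.3.3 compared the groups (intensity trend, two-sided, Benjamini-Hochberg over all tested genes, adjusted p of 0.05). The calculation was tested on simulated data. Members and lists were chosen with earlier results of these data known. Named genes were the members, Yod1, the called or otherwise the 3 most abundant tested genes of each list, and the 2 closest profiles of each tested member. Other genes are said to be named after their values were seen, or are markers and relatives given beside a member.

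Depth is not stated. FPKM was multiplied by the merged exon length of the listed transcripts (GENCODE M21, which is not of mm8, lengths only). In a fixed window of low products, the commonest in each library was shared, within a narrow band, by 22.6% to 27.6% of the values examined. That product was taken as 1 fragment, so the window bounded the depth in advance. Fragment numbers and their Poisson intervals are therefore estimates. Promoters came from RefSeq on GRCm38.p6. Between 0 and 6 genes per pair of libraries had identical values above 0, and all libraries were kept as separate samples.

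Alternatives were no filter, a filter at 5 FPKM, a pseudocount of 0.1, a minimum log2 change of 1, the replicate number as a block, no intensity trend, median-ratio scaling, totals without rRNA genes, removal of length and GC trends, and each library left out. No filter with a pseudocount of 0.1 was added after the values were seen.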

Additional observations from a re-analysis of the deposited data

How the results depend on the processing

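No member was called in any of the 16 alternatives run, and Icam1, Sox4 and Cd24a kept their sign in all of theirs. The log2 fold change of Icam1 lay between 0.57 and 1.47, with limma adjusted p from 0.0925 to 0.403. The small values of Clu and Cd44 changed sign: Clu was -0.0019 with rRNA genes left out of the total and -0.032 to 0.11 with 1 library left out, and Cd44 was -0.047 and -0.13 to 0.12. With no filter and a pseudocount of 0.1, Havcr1 and Vcam1 had log2 fold changes of 1.296 and 0.95 (limma adjusted p = 0.389 and 0.311). The number of genes called over the table was 55, and it was 0 with no filter (also with a pseudocount of 0.1), 149 with median-ratio scaling, 34 with rRNA genes left out of the total, 33 with length and GC trends removed, and 18 to 240 with 1 library left out. The cause was not tested. It was 41 with the replicate number as a block, where no member was called. Same-numbered libraries deviated together in 1 of 3 pairs (r = 0.296, -0.121 and -0.112), so the numbers were not taken as pairs.

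List medians moved as follows. With no filter they were -0.0096 for further injury genes, -0.017 for the CD44 list, 0.062 for integrin chains, 0.0035 for proximal tubule genes and -0.010 over all genes. With median-ratio scaling they were 0.062 for injury genes, 0.033 for NF-kB genes, 0.34 for integrin chains and -0.020 over all genes, so the sign of the injury and NF-kB medians depends on scaling. With 1 library left out they ran from -0.079 to 0.061 for injury genes, -0.42 to -0.16 for the CD44 list, -0.19 to 0.039 for NF-kB genes, 0.16 to 0.37 for integrin chains and 0.034 to 0.25 for proximal tubule genes. With a filter at 5 FPKM the median of the CD44 list was -0.18. Prom1 and Havcr1 had the fewest fragments, 5 in their lowest libraries by the estimate.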
